A study of Mus musculus with 6 samples.

Results

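H3K27me3, the trimethylated form of lysine 27 on histone H3, was mapped by chromatin immunoprecipitation and sequencing (ChIP-seq) around 6 T-box transcription factor genes of mouse spermatogenic cells. The genes were T, Eomes, Tbx2, Tbx3, Tbx4 and Tbx5. They were taken as 5 intervals of the mm9 genome build, and every deposited call that overlaps an interval was used. The intervals were chr17:8615000-8650000 for T, chr9:118370000-118410000 for Eomes, chr11:85630000-85735000 for Tbx2 and Tbx4 together, chr5:120105000-120150000 for Tbx3 and chr5:120270000-120350000 for Tbx5. They held 96 of the 138591 peaks listed by the MACS2 peak caller over 4 libraries, and 2312 of the 1015756 bins of 200 bp listed by hiddenDomains, a caller built for broad marks. No annotation of mm9 was used, so the genes are placed by the intervals and not by exon or promoter.

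All animals were 6 weeks old and of mixed background. Controls were MvhCre;Ezh2fl/+, which carry the Cre and 1 floxed Ezh2 allele beside a normal one (2 libraries), and mutants were MvhCre;Ezh2fl/fl (2 libraries). Mvh is a germ cell gene, and its Cre removes floxed Ezh2 in developing germ cells, so the controls could lose 1 copy too. Germ cells were separated from somatic cells of the testis on Percoll and with strainers, to a labelled purity of 90%, with no sort by stage named, and loss of EZH2 was not measured here. The labels do not say whether replicate libraries stem from separate animals, so p-values measure only the spread between these libraries, which may be technical. Read depth is unknown, and a call says that the mark was detected, not how strongly or in what share of the cells. Over the whole genome, MACS2 covered 64.4 to 82.0 Mb per library, most in mutant 1, and hiddenDomains covered 44.6 to 54.3 Mb, with both mutants below both controls.

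EZH2 and its paralog EZH1 are the alternative catalytic subunits of PRC2, the Polycomb repressive complex that writes H3K27me3. The mark is known for covering silent developmental regulators, often in broad domains that start at CpG-rich promoters. T-box factors bind DNA through a shared domain and act early in development. T (brachyury) is required for mesoderm and notochord, and Eomes for trophoblast, mesoderm and definitive endoderm. Tbx4 and Tbx5 act in the hindlimb and the forelimb, Tbx5 also in the heart, and Tbx2 and Tbx3 are mostly repressors that pattern the heart, limbs and other organs. Tbx2 and Tbx4 are neighbours on chromosome 11, and so are Tbx3 and Tbx5 on chromosome 5, with no other protein-coding gene between the members of a pair in the GRCm38.p6 assembly.

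Promoter sequence was at hand in RefSeq for 3 of the 6 genes, in windows from 250 bases before to 50 bases after the start. The windows are shown because CpG-rich starts are the textbook entry points of PRC2, and CpG dinucleotides are in capitals. They lie at chr17:8434173-8434472 (T), chr9:118477939-118478238 (Eomes) and chr11:85896515-85896814 (Tbx4), each on the plus strand of GRCm38.p6. That build differs from the one of the calls, so it is not known from these sequences whether a call covers them.
T: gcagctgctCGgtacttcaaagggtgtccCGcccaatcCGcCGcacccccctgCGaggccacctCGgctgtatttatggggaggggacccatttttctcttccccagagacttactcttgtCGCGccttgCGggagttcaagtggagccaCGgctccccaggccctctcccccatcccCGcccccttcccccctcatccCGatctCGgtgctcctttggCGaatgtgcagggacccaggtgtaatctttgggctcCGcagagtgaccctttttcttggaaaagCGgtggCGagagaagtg
Eomes: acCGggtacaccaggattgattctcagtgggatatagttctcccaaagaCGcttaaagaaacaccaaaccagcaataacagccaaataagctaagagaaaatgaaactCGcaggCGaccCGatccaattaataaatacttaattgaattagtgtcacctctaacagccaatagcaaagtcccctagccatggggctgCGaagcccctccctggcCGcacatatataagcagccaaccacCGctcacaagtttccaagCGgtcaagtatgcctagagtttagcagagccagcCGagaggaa
Tbx4: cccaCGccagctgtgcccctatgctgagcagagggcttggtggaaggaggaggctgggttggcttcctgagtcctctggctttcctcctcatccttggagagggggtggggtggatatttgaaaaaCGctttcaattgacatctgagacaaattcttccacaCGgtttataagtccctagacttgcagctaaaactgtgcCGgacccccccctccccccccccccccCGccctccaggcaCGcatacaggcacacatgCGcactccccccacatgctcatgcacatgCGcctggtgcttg
The T window held 17 CpG, more than 68.6% of the 32851 RefSeq windows, which had a median of 7. The Eomes window held 10 CpG and that of Tbx4 held 8, close to that median. The T-box half-site TCACACC was found on neither strand of the 3 windows, as in most windows: 3.98% of all windows hold it on either strand.

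Every T-box interval was marked in every library, and the broad domains were called in both genotypes. Merging the MACS2 peaks of the 4 libraries where they share a base pair or touch gave 31 regions in the intervals, of which 17 were called in all 4 libraries, or 54.8%. Over the genome 36.4% of 54748 merged regions were. All 10 T-box regions of 5 kb or more were called in all 4 libraries, which is near the background of 97.5% for the 3907 regions of that width. With hiddenDomains 15 of 22 merged regions were called in all libraries, where the genome had 43.4% of 36868. Among regions of 5 kb or more it was 8 of 8, and 99.8% of 2282 over the genome. A control-only region, called in both controls and neither mutant, was found once among the 31 (3.23%, against 4.90% over the genome), and a mutant-only region once (3.23%, against 5.97%). Both lay in the Tbx5 interval and were short. With hiddenDomains 0 of the 22 regions were control-only (7.53% over the genome) and 1 was mutant-only, in the Tbx2/Tbx4 interval (4.55%, against 2.80%).

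**Figure D1:**
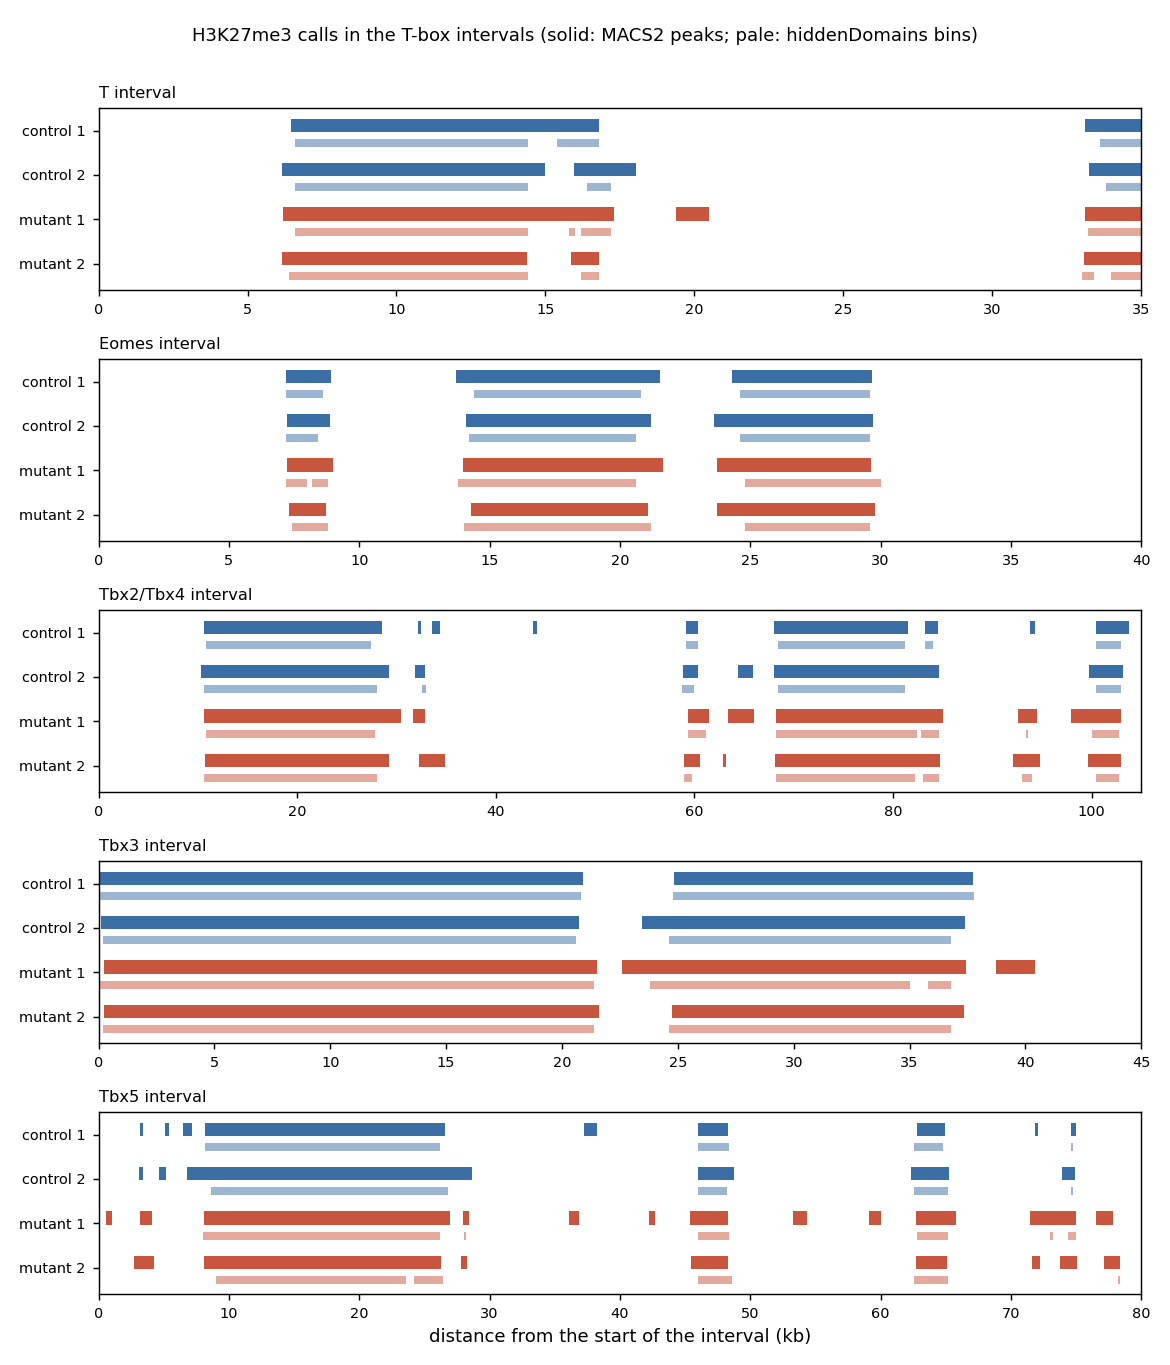
Calls in the 5 T-box intervals, by library (rows) and distance in kb from the start of the interval; solid bars are MACS2 peaks, pale bars hiddenDomains bins, blue controls and red mutants. Each wide block recurs in all 4 libraries. Differences lie at block ends, in breaks inside some blocks and in short peaks, most such peaks in the Tbx2/Tbx4 and Tbx5 intervals.

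Counted by base pair, 70.3% of what MACS2 called in any library within the T-box intervals was called in all 4, against 40.2% over the genome. Wide regions tend to give higher shares, so regions of 5 kb or more were also set against each other. They were not matched in width beyond that minimum. With MACS2 the 10 T-box regions spanned 133 kb in all, and the 3907 regions of the genome 31767 kb. The part of width in the shares was not tested. Within regions of 5 kb or more, 82.2% of T-box base pairs and 64.9% of those over the genome were called in all 4 libraries by MACS2. With hiddenDomains it was 90.4% and 79.2%. The share was highest in the Tbx3 interval (86.2% with MACS2) and the Eomes interval (85.1%) and lowest in that of Tbx5 (55.6%). With hiddenDomains the order was another, with Tbx3 (89.3%) and Tbx5 (82.5%) highest and T (78.0%) lowest. Base pairs called in both mutants and neither control amounted to 4.81 kb over the 5 intervals with MACS2, and those in both controls and neither mutant to 0.982 kb. These are 2.91% and 0.594% of the called base pairs, where the genome had 4.94% and 5.18%. In the T-box regions of 5 kb or more, counted whole where they run past an interval, the order was the opposite with MACS2, at 0.841 kb in mutants alone and 2.55 kb in controls alone (0.633% and 1.92%, against 4.52% and 2.17% over the genome). Most of that control-only length came from a single block, the second at T, past the end of the interval. Its peaks reached 8653133 and 8652456 in controls and 8650789 and 8650403 in mutants, which the bins did not show. With hiddenDomains the intervals had 3.40 kb in mutants alone and 0.400 kb in controls alone. That is 2.68% and 0.315% of the called base pairs, where the genome had 2.24% and 8.50%. In T-box regions of 5 kb or more, bins had 2 kb in mutants alone and 0.2 kb in controls alone. The shares there were 1.88% and 0.188%, against 1.71% and 2.985% in genome regions of that width.

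**Figure D2:**
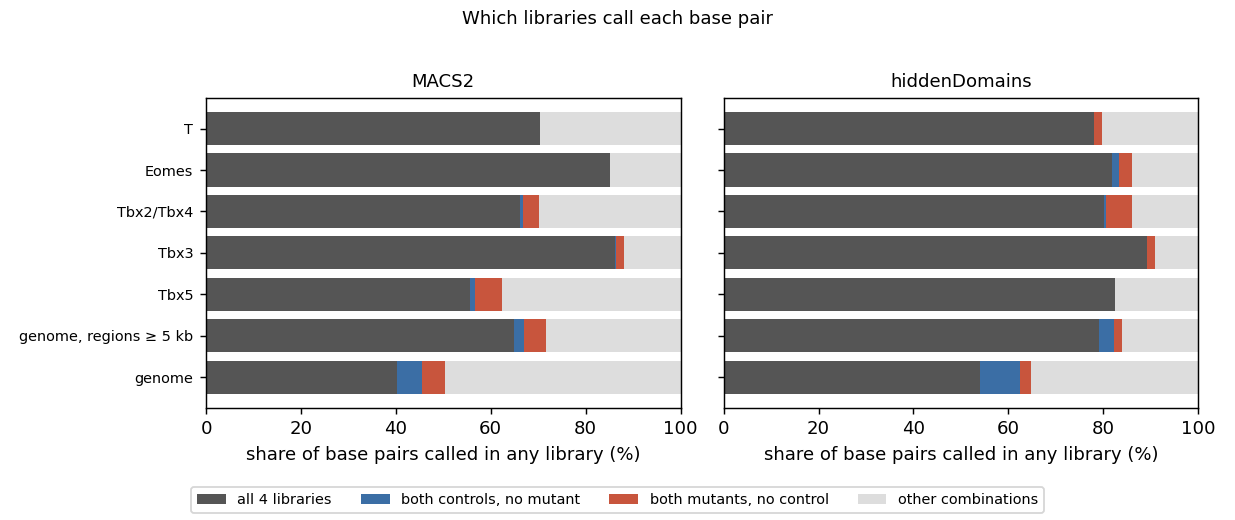
Share of the base pairs called in any library that was called in all 4 libraries (dark grey), in both controls and no mutant (blue), in both mutants and no control (red) or in another combination (light grey), by interval and over the genome. With hiddenDomains the blue share is 8.50% over the genome, 2.985% in its regions of 5 kb or more, and at most 1.39% in an interval.

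At T the mark formed a block of about 12 kb and a second, smaller block at the end of the interval. MACS2 peaks covered 12.3 kb of the interval in control 1, 12.7 kb in control 2, 14.1 kb in mutant 1 and 11.1 kb in mutant 2. The genotypes overlapped, and the mean difference of 0.122 kb was far smaller than the spread between the mutants (two-sided exact permutation p = 1, for means of 12.5 ± 0.293 kb in controls and 12.6 ± 2.11 kb in mutants, SD, n = 2 each). The hiddenDomains bins covered 10.6 and 9.8 kb in controls and 10.8 and 10 kb in mutants, again overlapping.

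The main T block, chr17:8621152-8633055, held 10.4 and 10.9 kb of peaks in controls and 11.1 and 9.16 kb in mutants. Its core was almost identical between libraries: the widest hiddenDomains domain ended at 8629400 in all 4, and it was 7.8 kb wide in 3 libraries and 8.0 kb in mutant 2. The second block, chr17:8648068-8653133, runs past the end of the interval and was the 1 T-box region of 5 kb or more in which peaks of both mutants were shorter than those of both controls. It held 5.02 and 4.20 kb in controls against 2.68 and 2.34 kb in mutants. The peaks began within 0.2 kb of each other in all libraries and reached 8653133 and 8652456 in controls but 8650789 and 8650403 in mutants. The hiddenDomains bins did not show this: they ended at 8650600 and 8650400 in controls and 8650200 and 8650400 in mutants.

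At Eomes the mark lay in 3 blocks that all 4 libraries shared under both callers. MACS2 peaks covered 14.9 kb in each control, 15.4 kb in mutant 1 and 14.3 kb in mutant 2. The mutants lay on either side of the controls, and the mean difference was -0.0715 kb (two-sided exact permutation p = 1). With hiddenDomains the covered length was 12.8 and 12.6 kb in controls and 13.4 kb in each mutant. Both mutants were thus above both controls by 0.6 kb or more, or 3 bins of 200 bp, and the p of 0.333 is the smallest that an exact permutation test of 2 libraries against 2 can give. The direction differed between the callers.

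The widest Eomes block, chr9:118383694-118391665, held 7.83 and 7.12 kb of peaks in controls and 7.69 and 6.82 kb in mutants. The next, chr9:118393611-118399793, held 5.38 and 6.09 kb against 5.92 and 6.07 kb. The narrow block at chr9:118377201-118378983 held 1.72 and 1.66 kb against 1.75 and 1.40 kb. In none of the 3 did the genotypes separate by MACS2. By bins, the widest block had 6.4 kb in each control and 6.8 and 7.2 kb in mutants.

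Tbx3 was the most densely marked of the intervals, with 75.1% to 83.9% of its length under MACS2 peaks. Peaks covered 33.8 and 34.6 kb in controls and 37.8 and 34.0 kb in mutants. Mutant 1 stood above the other 3 libraries, mutant 2 lay between the controls, and the mean difference was 1.69 kb (two-sided exact permutation p = 0.667). Bins covered 33.8, 32.6, 33.6 and 33.4 kb in controls 1 and 2 and mutants 1 and 2, which overlapped.

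The mark at Tbx3 consisted of 2 blocks separated by a few kb. The first, chr5:120105047-120126601, held 20.8 and 20.7 kb of peaks in controls and 21.3 and 21.4 kb in mutants. Both callers ended it farther along in both mutants. Its peaks ended at 120125894 and 120125747 in controls and at 120126491 and 120126601 in mutants, and its bins at 120125800 and 120125600 in controls and at 120126400 in each mutant. The second block, chr5:120127595-120142748, held 12.9 and 13.9 kb in controls and 14.9 and 12.6 kb in mutants, with no separation. A further peak of 1.65 kb, at chr5:120143748-120145395, was listed in mutant 1 alone.

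At Tbx5 the mark combined a broad domain of about 20 kb with scattered short peaks. MACS2 peaks covered 25.9 and 29.3 kb in controls and 34.8 and 28.6 kb in mutants. Mutant 1 was highest and mutant 2 lay between the controls, so the mean difference of 4.08 kb was not larger than the spread between the mutants (31.7 ± 4.42 kb, SD, n = 2; two-sided exact permutation p = 0.667), and it was 0.956 kb without mutant 1. Bins covered 22.8 and 23.2 kb in controls and 24.0 and 22.2 kb in mutants.

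The broad Tbx5 domain, chr5:120276510-120298683, held 19.1 and 21.9 kb of peaks in controls and 19.3 and 18.6 kb in mutants, and the groups overlapped. Shorter blocks at chr5:120315386-120318762 and chr5:120332333-120335822 were called in all 4 libraries by both callers. At the first of these, peaks covered 2.31 and 2.75 kb in controls and 2.91 and 2.86 kb in mutants. At the second they covered 2.17 and 2.88 kb in controls and 3.09 and 2.39 kb in mutants, which overlap. A further region called in all 4 libraries, chr5:120341487-120345038, named after its values were seen, held 0.694 and 1.01 kb of peaks in controls and 3.53 and 1.90 kb in mutants, but 0.2 kb of bins in each control, 0.8 kb in mutant 1 and none in mutant 2. The window that holds it, chr5:120340001-120350000, had a log2 difference of 1.41 in peaks (limma adjusted p = 0.151). Of the 13 merged MACS2 regions here, 5 were listed in mutant 1 alone and 1 in control 1 alone. The mutant-only region, chr5:120346554-120348392, held 1.28 and 1.22 kb of peaks in mutants, and bins covered 0.192 kb of it in mutant 2 alone. The control-only region, chr5:120274596-120275388, named after its values were seen because it is the 1 of its kind, held 0.324 and 0.544 kb in controls and no bin in any library.

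The interval of Tbx2 and Tbx4 was the 1 T-box interval in which both mutants exceeded both controls under both callers. MACS2 peaks covered 39.4 kb in control 1, 43.0 kb in control 2, 49.4 kb in mutant 1 and 45.7 kb in mutant 2. The means were 41.2 ± 2.54 kb and 47.6 ± 2.64 kb (SD, n = 2 each), a difference of 6.39 kb or 15.5% (two-sided exact permutation p = 0.333, again the lowest possible). Bins covered 34.0 and 34.4 kb in controls and 37.8 and 37.2 kb in mutants, a difference of 3.30 kb or 9.65% (two-sided exact permutation p = 0.333). This order is not rare in the genome. Among 50-kb windows with a mean coverage of at least 1 kb, both mutants were above both controls in 22.1% of 14380 with MACS2 and 8.27% of 11526 with hiddenDomains, and below in 34.1% and 44.7%. Among windows with at least 10 kb, which are closer to the intervals in density, they were above in 39.4% and 17.0% and below in 19.5% and 38.7%. The windows were not matched in length to the intervals, which are 35 to 105 kb long. Against these shares stand 1 of 5 T-box intervals above with MACS2, 2 of 5 with hiddenDomains, and 0 of 5 below with either.

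**Figure D3:**
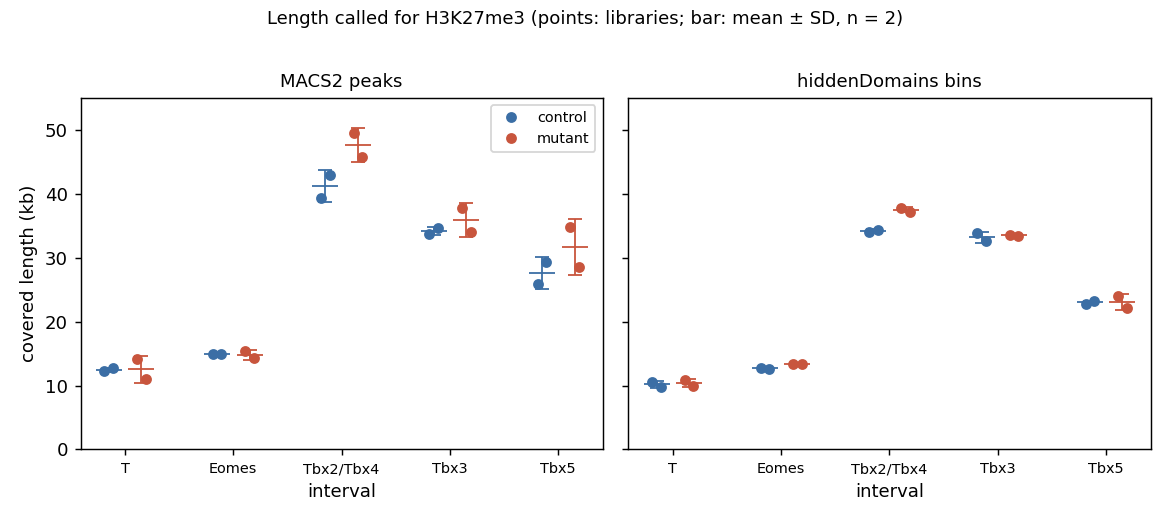
Length in kb called for H3K27me3 in each T-box interval (x axis), by MACS2 (left) and hiddenDomains (right); points are libraries, and bars show the mean ± SD of 2 libraries. The Tbx2/Tbx4 mutants lie at 45.7 and 49.4 kb of peaks and at 37.2 and 37.8 kb of bins, above both controls; the intervals of T, Tbx3 and Tbx5 overlap under both callers.

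The genotypes overlapped in the widest block at Tbx2 and Tbx4. That block, chr11:85640316-85660430, held 18.0 and 18.9 kb of peaks in controls and 19.8 and 18.6 kb in mutants, and 16.6, 17.4, 17.0 and 17.4 kb of bins in controls 1 and 2 and mutants 1 and 2. The second wide block, chr11:85698002-85715044, held 14.8 and 16.6 kb of peaks in controls and 16.9 and 16.6 kb in mutants, with control 2 almost equal to mutant 2.

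By bins the same block separated the genotypes, at 13.6 and 12.8 kb in controls and 16.0 and 15.6 kb in mutants. The difference lay mostly at its far end, although the run of bins also began at 85698401 in both controls and at 85698201 in both mutants. The continuous run of bins stopped at 85711200 in both controls and at 85712400 and 85712200 in mutants. A further stretch of bins, chr11:85712801-85714600, held 0.8 kb in control 1, none in control 2, and 1.8 and 1.6 kb in mutants. MACS2 had peaks over this stretch in all 4 libraries, with 1.26 kb in control 1 and all 1.80 kb in the others.

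Farther along, chr11:85722079-85724820 was marked chiefly in mutants. MACS2 peaks covered 0.527 kb in control 1, none in control 2, and 1.89 and 2.74 kb in mutants. Bins were called there in mutants alone, 0.2 kb in mutant 1 and 1.0 kb in mutant 2. The last region of 5 kb or more, chr11:85727944-85733731, held 3.27 and 3.44 kb of peaks in controls and 4.98 and 3.28 kb in mutants, so that mutant 1 alone stood out.

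A test across the genome gave no T-box window past its threshold. Bin coverage in 10-kb windows was compared between genotypes with limma on log2(kb + 1), a scale that understates changes of sparsely covered windows. Of 35 windows that overlap the T-box intervals, 22 reached the minimum mean of 1 kb and were tested among 16244. At a Benjamini-Hochberg adjusted p under 0.05, 0 of the 22 were called, against a background of 0.806% (15 windows higher in mutants and 116 lower, or 130 and 171 with libraries scaled to equal totals). With MACS2 peaks limma called 0 of 26 T-box windows and 0 over the genome, and at an unadjusted p under 0.05 it had 3 T-box windows higher and 0 lower, against 1881 and 2005 of 21605 windows. With bins, at an unadjusted limma p under 0.05, 2 T-box windows were higher in mutants and 0 lower, where the genome had 3.32% higher and 19.0% lower. The median log2 difference was 0.02 over the T-box windows and -0.10 over all windows tested. Several T-box windows were fully covered in every library, which fixes their difference at 0. No background of equal density was computed for the 10-kb windows. In 50-kb windows the median difference in bins was -11.1% at a mean of at least 1 kb and -2.88% at 10 kb or more.

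The T-box windows of lowest p were block ends already described. The window chr11:85710001-85720000, in the Tbx2/Tbx4 interval, had 2.0 and 1.2 kb of bins in controls and 4.2 and 3.8 kb in mutants, which is 0.96 ± 0.20 (SE) on the log2 scale (limma adjusted p = 0.145). When every library was scaled to the same total of bins, it was 1.08 and the window passed (limma adjusted p = 0.0455). With MACS2 peaks, the same window had a log2 difference of 0.35 (limma adjusted p = 0.486). The window beside it, chr11:85720001-85730000, named after its values were seen, had 0.527 and 0.283 kb of peaks in controls and 3.94 and 3.10 kb in mutants (limma adjusted p = 0.145 for a log2 difference of 1.69, SE 0.17).

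At the end of the first Tbx3 block, chr5:120120001-120130000 had 6.0 kb of bins in each control and 7.6 and 6.8 kb in mutants (limma adjusted p = 0.199 for a log2 difference of 0.23, SE 0.06). The window of lowest p at Eomes, chr9:118380001-118390000, had 5.6 and 5.8 kb against 6.2 and 6.0 kb (log2 difference 0.08, limma adjusted p = 0.215). It was -0.05 with MACS2 peaks. The most negative T-box window was chr5:120140001-120150000 at Tbx3, with 2.8 and 1.8 kb against 1.0 and 1.8 kb (limma adjusted p = 0.451 for a log2 difference of -0.46, SE 0.28), and with MACS2 peaks it was 0.22. At T, chr17:8640001-8650000 had a log2 difference of 0.17 and chr17:8630001-8640000 one of -0.15, and at Tbx5, chr5:120310001-120320000 had 0.08 and chr5:120290001-120300000 had -0.08. None of these passed the threshold.

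**Figure D4:**
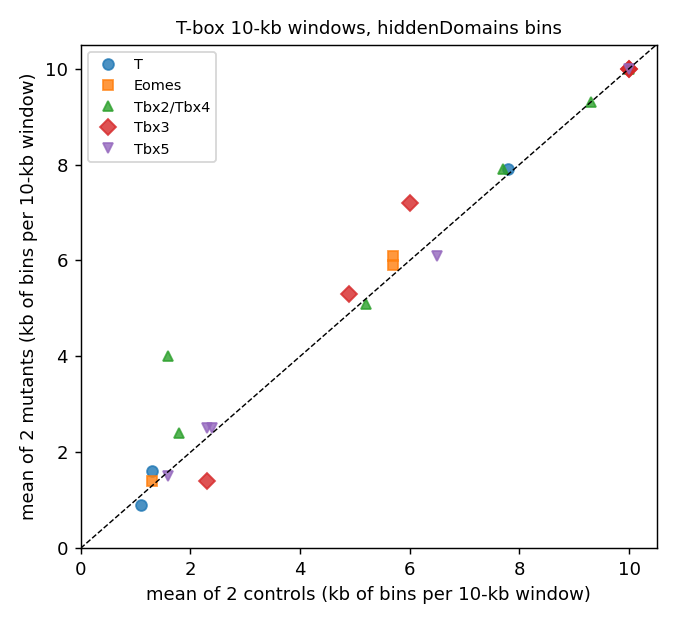
Mean kb of hiddenDomains bins per 10-kb window in the 2 controls (x axis) and the 2 mutants (y axis) for the 22 tested T-box windows; the dashed line marks equality. Most windows lie near the line, and the point farthest above it is the Tbx2/Tbx4 window with 2.0 and 1.2 kb in controls and 4.2 and 3.8 kb in mutants.

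The callers overlapped more closely at the T-box genes than over the genome. Of the MACS2 base pairs in the intervals, 89.9% and 83.6% were also covered by bins in controls and 78.3% and 85.8% in mutants. Over the genome these shares were 76.1% and 74.8% in controls and 60.1% and 67.0% in mutants. The genome shares span calls of all widths, and no background of wide regions was computed for them. In each library at least 98.7% of the bin-covered base pairs in the intervals lay under a MACS2 peak. That share was not computed over the genome, so no comparison is drawn from it. The deposited bins carry a display score whose highest value is 1000. That value was carried by 98.4% and 98.8% of the T-box bins in controls and by 95.8% and 94.0% in mutants. Over the genome it was carried by 93.0% and 93.1% in controls and 91.0% and 92.4% in mutants, again with no background of wide regions. No source used here explains that score.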

How the data were processed

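H3K27me3 ChIP-seq was analysed in 2 control and 2 Ezh2 mutant libraries. The 2 input samples were not used here. Per the file headers, the deposited peaks come from MACS2, and per the file names the deposited bins of 200 bp come from hiddenDomains. Each library was called separately. Peak lists hold positions only, and the deposited bins also carry a display score. The submitters' processing notes name mm9, Bowtie, SAMtools and bedtools, without versions. No source used here gives the calling thresholds or the read depth. A deeper library yields more and wider calls, which coverage does not correct for.

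Touching calls were joined, and coverage was counted in base pairs inside each interval. Interval coverage was tested between genotypes by exact permutation (two-sided). Windows of 10 kb with a mean of at least 1 kb of bins were fitted with limma 3.58.1 (R 4.3.3, empirical Bayes with trend, pseudocount 1 kb, Benjamini-Hochberg adjustment over all windows, threshold 0.05). On 16244 windows simulated for mutant against control, limma found 85% of 100 planted changes of 1 log2 unit. It found 96% of 100 planted changes of 2 and made 7 false calls. The planted changes were losses in mutants only, in the better covered windows, with normally distributed noise. The shares found thus do not apply to gains or to sparsely covered windows. The members and lists were chosen with earlier results of these data known. The regions named are the merged MACS2 regions of 5 kb or more, those specific to a genotype of 1 kb or more, and the window of lowest p in each direction and interval. Others were chosen after their values were seen, and so were the backgrounds of 50-kb windows and of regions of 5 kb or more. Other T-box genes were not analysed here, since they need an annotation of mm9. Promoter sequences are from RefSeq (GRCm38.p6).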

Additional observations from a re-analysis of the deposited data

How the results depend on the processing

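For the Tbx2/Tbx4 interval the mean difference stayed above 0 under every alternative run, from 2.0 kb (bins of the highest score) to 8.26 kb (without mutant 2). Since both mutants were above both controls there, leaving out 1 library could not change the sign. Bins of the highest score were most of the bins already counted, so that run is no separate check. The other interval differences changed sign, and the cause was not tested. T had -0.26 kb with 10 kb added on each side and -0.689 kb with libraries scaled to equal totals, and from -1.37 to 1.62 kb with 1 library left out. Eomes had 0.70 kb with bins, 0.50 kb with bins of the highest score and 0.119 kb with 10 kb added, and from -0.607 to 0.464 kb with 1 library left out. Tbx3 had -1.20 kb with bins of the highest score and -0.30 kb when scaled, and from -0.206 to 3.59 kb with 1 library left out. Tbx5 had -1.20 kb with bins of the highest score. Control-only regions numbered 0 with bins, with a 50% overlap and with peaks merged within 1 kb, and mutant-only regions 4 with a 50% overlap. With 1 library left out these were 1 to 4 and 2 to 8. Mutant-only length with 1 library left out was 2.44 to 7.0 kb at Tbx2/Tbx4, 0.667 to 3.10 kb at Tbx3 and 2.80 to 9.04 kb at Tbx5, and at Eomes 0 to 0.586 kb, beside 0.058 to 0.555 kb control-only. Control-only length was 0.595 to 1.41 kb at Tbx2/Tbx4 (0.42 kb with all libraries) and 0.421 to 3.79 kb at Tbx5, where it was 3.79 kb without control 1 and 1.97 kb without control 2 (0.421 kb with all). It was 0.124 to 0.471 kb at Tbx3 (0.124 kb with all), and at T 0 to 0.765 kb, beside 0.047 to 1.09 kb mutant-only (0 and 0.004 kb with all).

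T-box windows past the limma threshold were 1 higher with scaled totals, and 0 to 2 higher and 0 to 1 lower with 1 library left out, where the lone library is assumed to vary like the other group. Among these, chr5:120120001 (0.16 without mutant 1 and 0.30 without mutant 2) and chr11:85730001 (-0.15 without mutant 1) have controls of equal length, so that no spread of their own is left and their passing carries no weight. With a replicate block they were 0 and 0. The numbers pair no libraries by label, and their deviations correlated at 0.0409. Over the genome, where 15 windows were higher and 116 lower, no window passed with the block, with peaks, with 100-kb windows, with a pseudocount of 0.2 kb or without 1 control. The counts were 88 and 570 with 5-kb windows, 215 and 1504 without the coverage minimum, 452 and 2134 without mutant 1, and 646 and 1963 without mutant 2. Window differences changed sign at chr11:85730001 (0.12 scaled, -0.147 to 0.0902 with 1 library left out), chr17:8630001 (-0.377 to 0.082 with 1 library left out), chr5:120140001 (0.22 with peaks), chr5:120290001 (0.0723 scaled) and chr9:118380001 (-0.048 with peaks). Scaling moved the median of all windows from -0.10 to 0.03. Calls of 2 libraries a genotype, with unknown depth, limit all of these.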

Other observations

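Beyond the intervals, the marked territory ended abruptly on 1 side of 2 of them. In the 100 kb before the Tbx2/Tbx4 interval, chr11:85530000-85629999, and in the 100 kb after the Eomes interval, chr9:118410001-118510000, no library had a peak or a bin. On their other sides, MACS2 peaks covered 8.40 to 17.2 kb of 100 kb at Tbx2/Tbx4 and 3.36 to 5.56 kb at Eomes.

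The stretch between the Tbx3 and Tbx5 intervals, chr5:120150001-120269999, was itself well covered. MACS2 peaks held 37.6 and 41.4 kb of it in controls and 45.7 and 36.1 kb in mutants, with no separation of the genotypes. Bins held 30.6 and 31.6 kb in controls and 30.0 and 26.2 kb in mutants, and here both mutants were below both controls. In the 100 kb before the T interval, chr17:8515000-8614999, peaks held 13.3 and 11.7 kb in controls and 28.0 and 18.6 kb in mutants. Bins held 9.8 kb there in each control and 16.0 and 9.2 kb in mutants, so the higher value was that of mutant 1 alone.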
